A study of Arabidopsis thaliana with 87 samples.

Results

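Small RNAs from the RUBY transgene were compared between fully red leaves of Arabidopsis thaliana plants that carried RUBY behind the ZmUBQ promoter and fully red leaves of plants that carried it behind the 35S promoter. Membership followed the sample titles and construct labels: every Col-0 library titled as fully red was taken, which gave 20 of the 87 libraries, 7 with ZmUBQ and 13 with 35S. The ZmUBQ libraries came from 3 transgenic events, with MK054 replicates 3 and 4, MK055 replicates 1, 2 and 3, and MK056 replicates 5 and 6. The 35S libraries came from 8 events, MK016 (3 libraries), MK040, MK041 and MK043 (2 libraries each), and MK025, MK042, MK044 and MK045 (1 library each). An event is a separate insertion of the construct, so the promoter is a property of the event and libraries of an event share their insertion. All plants were in the Col-0 background, leaves were taken at 4 weeks, and the plants were kept at 22 °C under an 18 h day and a 6 h night. All 20 libraries were transgenic and red, so no fully red library here lacks RUBY.

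RUBY is a reporter that makes the red pigment betalain, so a red leaf is a leaf in which the transgene is expressed, and loss of the red colour is read as silencing. In plants, transgene silencing runs through small RNAs that Dicer-like enzymes cut from double-stranded RNA, which places them on both strands. In Arabidopsis, DCL4 makes 21 nt and DCL2 makes 22 nt small RNAs, which act mainly on RNA, and DCL3 makes 24 nt small RNAs, which guide DNA methylation. The 35S promoter comes from cauliflower mosaic virus and the ZmUBQ promoter from a maize ubiquitin gene, and both drive expression in most tissues.

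Each library's file gave reads that matched the RUBY construct for every length from 18 to 28 nt on the plus and the minus strand, as counts and as reads per 1e+06 mapped reads (RPM). The ZmUBQ libraries held 8.04 to 17.9 M mapped reads (M stands for 1e+06; median 12.9 M) and 1797 to 10471 RUBY reads. The 35S libraries held 0.905 to 30.7 M mapped reads (median 16.8 M) and 404 to 64493 RUBY reads. One 35S library, MK044 replicate 3, stood apart, with 0.905 M mapped reads, 404 RUBY reads and counts in 15 of the 22 length and strand classes; there 3 reads are 3.32 RPM, so a class at 0 may hold up to that level. In the ZmUBQ libraries 3 reads are 0.167 to 0.373 RPM. The files name a separate reference for each construct, and the ZmUBQ files have another column layout, so promoter, reference sequence and set of files cannot be told apart. The files give no position along the transgene and do not say which strand is that of the mRNA, and with 1 transgene measured the labelled tissue could not be checked against marker genes.

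Fully red ZmUBQ leaves held less RUBY small RNA than fully red 35S leaves in nearly every size class, with the 24 nt class as the exception. Among the 7 ZmUBQ libraries the total over 18 to 28 nt was 584 and 225 RPM in MK054, 224, 347 and 232 RPM in MK055, and 231 and 237 RPM in MK056. Among the 13 35S libraries it ran from 446 RPM in MK044 to 2989 RPM in MK016 replicate 5, with a median of 734 RPM. The ZmUBQ libraries formed a narrow group with MK054 replicate 3 above the others, and 6 of the 7 lay below every 35S library. The means were 297 ± 134 RPM (SD, n = 7) and 1172 ± 795 RPM (SD, n = 13). On the log2(RPM + 1) scale the difference was -1.79 (95% interval -2.59 to -1.01; two-sided exact permutation test over libraries, adjusted p = 0.000387 among 36 levels), a 3.47-fold higher level in 35S. With each event reduced to 1 mean, 3 ZmUBQ against 8 35S events, the exact permutation test gave an adjusted p of 0.023. In bulk leaf tissue, fewer cells that make these RNAs and less RNA per cell cannot be told apart.

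Of the 36 levels tested, which are the total, each strand, each length and each length on each strand and so overlap, 28 were lower in ZmUBQ (77.8%) and 2 were higher (5.56%). With 1 mean per event, 61.1% of the 36 levels passed in either direction. The smallest p that 165 regroupings of the events allow is 0.00606.

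The plus strand separated the promoters completely, and the minus strand did not. Plus strand RUBY reads were at 174 ± 56.4 RPM in ZmUBQ (129 to 283 RPM) and 632 ± 293 RPM in 35S (285 to 1226 RPM). The ranges did not overlap, and all 7 ZmUBQ libraries lay below all 13 35S libraries (difference -1.78 on the log2 scale; exact permutation, adjusted p = 4.22e-05, and 0.0145 over events). Minus strand reads were at 123 ± 81.1 RPM in ZmUBQ (61.6 to 300.3 RPM) and 540 ± 512 RPM in 35S (26.5 to 1762 RPM). These ranges overlapped: MK054 replicate 3 lay above 7 of the 13 35S libraries, and MK044 replicate 3 had the lowest minus strand level of all 20 libraries. The difference of -1.62 (95% interval -2.97 to -0.27) had an adjusted p of 0.0289 by exact permutation over libraries and 0.251 over events. It no longer passed without MK055 replicate 3 (adjusted p = 0.056) or MK056 replicate 6 (0.0501), nor without the whole of MK055 (0.139), MK056 (0.0785), MK016 (0.0709) or MK040 (0.0612), each by exact permutation.

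The 21 nt RNAs, the main product of DCL4, were the most abundant length in most libraries of both groups. In ZmUBQ they ran from 58.4 to 382 RPM with a median of 78.4 RPM, and in 35S from 85.1 to 2012 RPM with a median of 348 RPM. The highest ZmUBQ value belonged to MK054 replicate 3 and the lowest 35S value to MK044, and 4 of the 7 ZmUBQ libraries lay below all 35S libraries. The 35S level was 4.65-fold higher on the log2(RPM + 1) scale (95% interval 2.04 to 10.6; exact permutation, adjusted p = 0.00268), while the test over events missed the threshold (exact permutation, adjusted p = 0.0664). On the minus strand alone, 21 and 22 nt RNAs were lower over libraries (log2 differences -2.29 and -1.81; exact permutation, adjusted p = 0.0067 for both) but not over events (0.126 and 0.109), and 22 nt also not without event MK055 (0.0561). The 22 nt RNAs of both strands, the DCL2 class, followed the same order. They were at 28.1 ± 11.5 RPM in ZmUBQ (19.8 to 52.0 RPM) and 121 ± 80.0 RPM in 35S (44.2 to 302 RPM), and only MK054 replicate 3 reached into the 35S range. The fold was 3.68 (95% interval 2.17 to 6.25), with adjusted p = 0.0003 over libraries and 0.023 over events by exact permutation.

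The 24 nt RNAs, the DCL3 class, showed no such gap when both strands were summed. They ran from 23.9 to 70.9 RPM in ZmUBQ (median 51.1 RPM) and from 21.8 to 70.9 RPM in 35S (median 39.3 RPM), so the 2 ranges nearly coincided. The means were 46.1 ± 18.5 and 44.8 ± 15.7 RPM, and the log2 difference was 0.01 with a 95% interval of -0.52 to 0.55 (exact permutation, adjusted p = 0.956). In folds the interval reached from 0.697 to 1.46, which does not include the ZmUBQ to 35S folds of the total (0.289), 21 nt (0.215) or 22 nt (0.272). The 23 nt RNAs lay between, at 21.6 ± 5.59 RPM in ZmUBQ and 31.8 ± 9.7 RPM in 35S. Their difference of -0.53 passed over libraries (exact permutation, adjusted p = 0.019) and over events (0.0496). It did not pass without MK054 replicate 4 (adjusted p = 0.0506) or without event MK016, MK054 or MK055 (0.0537 to 0.081), by exact permutation. In 35S the mean plus strand 24 nt level, 34.1 RPM, was near those of 23 and 25 nt (28.5 and 26.4 RPM). In ZmUBQ it was 25.4 RPM against 10.8 and 7.24 RPM. How much of the 24 nt level came from DCL3 was not tested.

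**Figure D1:**
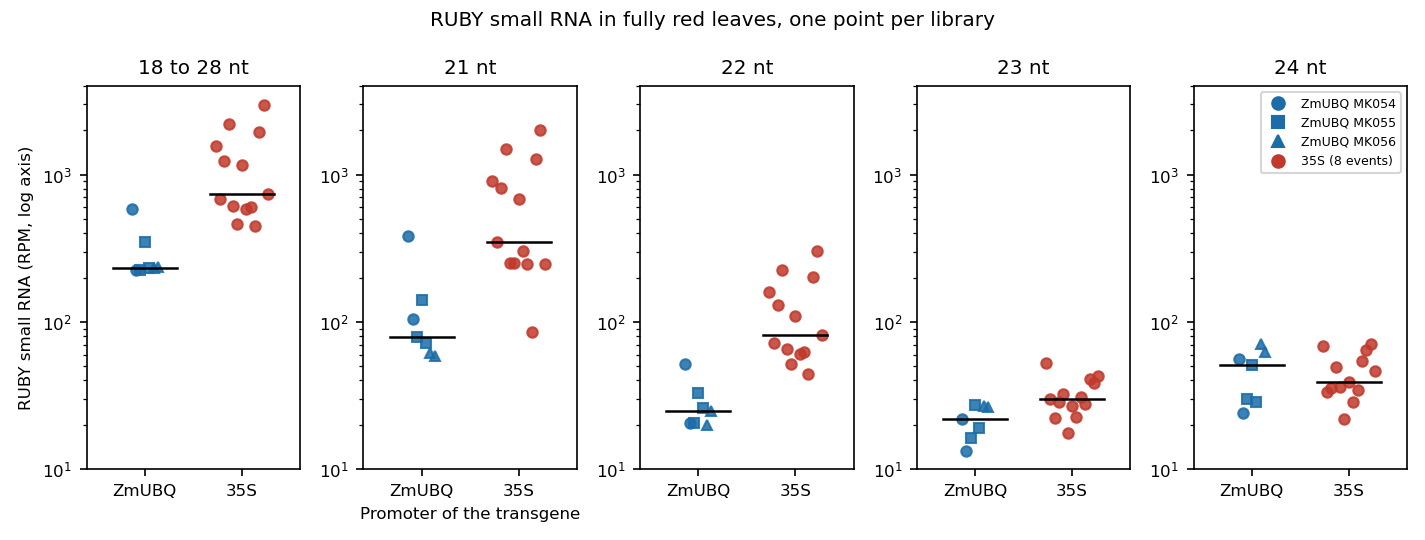
RUBY small RNA in fully red leaves by length class. The log y axis gives RPM, each point is a library (7 ZmUBQ with a symbol for each event, 13 35S), and bars are medians; ZmUBQ points lie mostly below the 35S points for the total, 21 nt and 22 nt, and share their range for 24 nt.

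With both strands summed, lengths outside 21 to 24 nt were lower with ZmUBQ as well. At 18, 19, 20, 25, 26 and 27 nt, all 7 ZmUBQ libraries lay below all 13 35S libraries, with 35S levels 2.69-fold (25 nt) to 4.13-fold (20 nt) higher. All 6 of these lengths passed over libraries and over events (exact permutation, adjusted p = 0.0145 over events for each). With 10 RPM added, the folds at 27 and 28 nt fell from 3.16 and 2.92 to 2.02 and 1.89 and still passed. At 28 nt, 5 of the 7 ZmUBQ libraries lay below all 35S libraries. These reads were mostly plus strand in both groups. Summed over 18 to 20 and 25 to 28 nt, the plus strand held 58.0 ± 15.5 RPM in ZmUBQ and 217 ± 60.5 RPM in 35S. The minus strand held 15.1 ± 5.74 and 72.2 ± 83.1 RPM, with medians of 14.9 and 27.3 RPM. Minus strand 25 nt RNAs went the other way without passing, at 2.07 ± 1.05 RPM in ZmUBQ and 1.22 ± 1.17 RPM in 35S (exact permutation, adjusted p = 0.0818). Minus strand 19, 26 and 28 nt RNAs were lower in ZmUBQ but did not pass (exact permutation, adjusted p = 0.0834, 0.0812 and 0.0548). The summed level of 21 to 24 nt reads relative to all other lengths differed by 0.14 on the log2 scale between the promoters (exact permutation, adjusted p = 0.689).

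Split by strand, the 23 nt RNAs differed in opposite directions. Plus strand 23 nt RNAs were at 10.8 ± 2.96 RPM in ZmUBQ and 28.5 ± 9.19 RPM in 35S, with all 7 ZmUBQ libraries below all 35S libraries (log2 difference -1.30; exact permutation, adjusted p = 4.22e-05, and 0.0145 over events). Minus strand 23 nt RNAs were at 13.7 and 5.89 RPM in MK054, 6.47, 12.4 and 5.19 RPM in MK055, and 17.7 and 13.8 RPM in MK056, against 0 to 11.4 RPM in 35S with a median of 1.48 RPM. Here 4 of the 7 ZmUBQ libraries exceeded every 35S library and 10 of the 13 35S libraries lay below every ZmUBQ library. ZmUBQ was 3.21-fold higher (95% interval 1.68 to 6.11; exact permutation, adjusted p = 0.00268, and 0.0327 over events). The fold depends on the added 1 RPM: it was 4.88 with 0.1 RPM and 1.56 with 10 RPM added.

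Minus strand 24 nt RNAs were also higher with ZmUBQ, less firmly. They were at 25.8 and 9.38 RPM in MK054, 10.6, 22.7 and 11.2 RPM in MK055, and 35.6 and 29.1 RPM in MK056. In 35S they ran from 0 RPM (MK044) to 34.4 RPM (MK016 replicate 5), with a median of 4.47 RPM. The ranges overlapped, and 7 of the 13 35S libraries lay below every ZmUBQ library. The log2 difference of 1.27 (95% interval 0.08 to 2.47) passed over libraries (exact permutation, adjusted p = 0.0438) but not over events (0.196). It did not pass in 16 of the 27 distinct leave-outs of a library or an event either, with an adjusted p of up to 0.184 when MK056 was left out (exact permutation). Those leave-outs included each of MK054 replicate 3, MK055 replicate 2, MK056 replicates 5 and 6, MK016 replicate 4, MK041 replicates 1 and 2, MK043 replicates 1 and 2, MK044 and MK025. Plus strand 24 nt RNAs were at 25.4 ± 8.18 RPM in ZmUBQ and 34.1 ± 11.4 RPM in 35S, a log2 difference of -0.41 (95% interval -0.87 to 0.06; exact permutation, adjusted p = 0.0861). That plus strand difference did pass without MK041 replicate 2 (exact permutation, adjusted p = 0.0401) or without event MK041 (0.0463) or MK056 (0.0373).

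The minus strand length profiles had different shapes. In ZmUBQ the order of the mean minus strand levels was 21, 24, 23 and 22 nt, and 24 nt exceeded 22 nt in 7 of 7 libraries. In 35S the order was 21 and then 22 nt, with 22 nt second in 13 of 13 libraries and 24 nt above 22 nt in 0 of 13. Both MK056 libraries had more 24 nt than 21 nt minus strand reads, and no other library of the comparison did. The plus strand shared part of this shape. There 24 nt exceeded 22 nt in 6 of 7 ZmUBQ libraries and in 1 of 13 35S libraries, which was MK044 with its 404 RUBY reads. Plus strand 24 nt exceeded 21 nt in the same MK056 libraries and in 0 of 13 35S libraries.

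**Figure D2:**
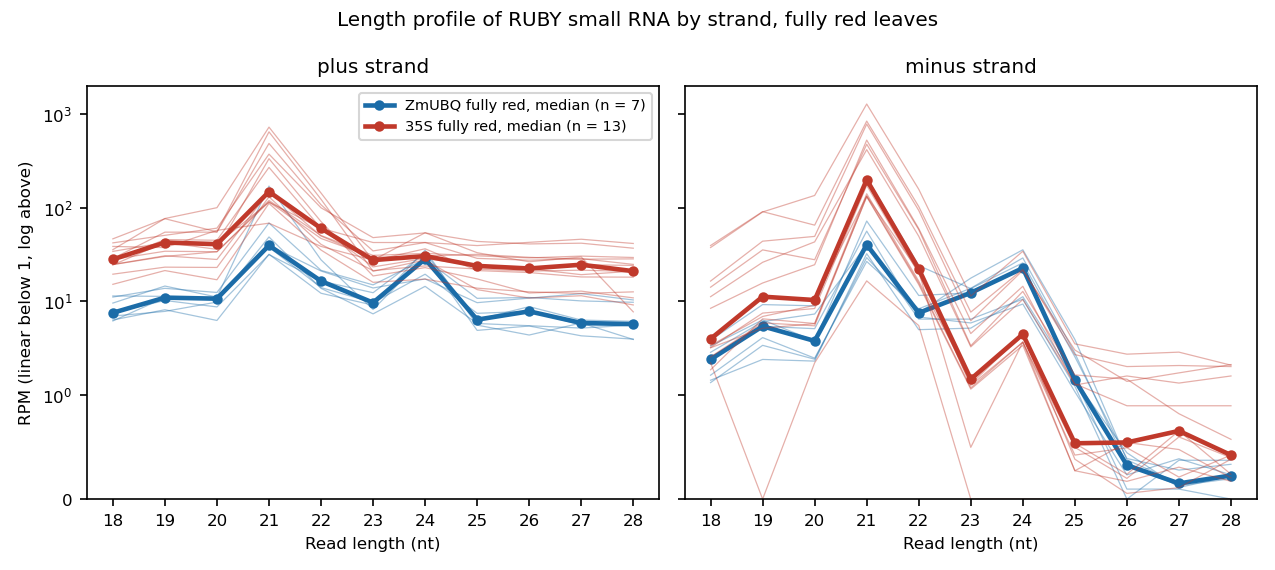
Length profile of RUBY small RNA on each strand. The x axis is read length in nt, and the y axis is RPM (log above 1 RPM, linear below). Thin lines are libraries and thick lines are group medians (7 ZmUBQ, 13 35S). The ZmUBQ minus strand has a second rise at 23 and 24 nt, where its median crosses above the 35S median. On the plus strand the ZmUBQ median also rises at 24 nt but stays below the 35S median.

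As shares, the 23, 24 and 25 nt RNAs held more minus strand reads in ZmUBQ than in 35S, while no difference was found for all RUBY reads together. Of 25 shares tested, 5 were higher in ZmUBQ (20%) and 1 was lower (4%) over libraries, while 0% passed the exact permutation test with 1 mean per event after adjustment and 7 of 25 passed it unadjusted. With the smallest p at 0.00606, a single share or ratio cannot pass the adjustment over events unless others have low p-values too. The minus strand held 39.6 ± 7.61% of all RUBY reads in ZmUBQ and 38.9 ± 14.7% in 35S, a difference of 0.644 percentage points (95% interval -11.8 to 13.3; exact permutation, adjusted p = 0.956). Of 21 nt reads it held 50.05 ± 3.92% and 54.6 ± 11.1% (exact permutation, adjusted p = 0.804).

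Of 23 nt reads, the minus strand held 27.1 to 66.0% in ZmUBQ (median 45.1%) and 0 to 29.5% in 35S (median 8.46%). Only the lowest ZmUBQ library fell within the 35S range, and the means of 48.3 and 10.4% differed by 37.9 percentage points (95% interval 27.2 to 48.6; exact permutation, adjusted p = 0.000322 over libraries and 0.0758 over events). Of 24 nt reads it held 35.1 to 50.2% in ZmUBQ and 0 to 48.5% in 35S. The ZmUBQ libraries lay within a narrower span at 24 nt than the 35S libraries, and 6 of the 7 lay inside the 35S range. The means were 43.1 ± 5.33 and 21.9 ± 14.9% (exact permutation, adjusted p = 0.0123 over libraries, 0.126 over events, and 0.0681 without event MK056). Of 25 nt reads it held 22.98 ± 12.1% in ZmUBQ and 5.15 ± 5.46% in 35S (exact permutation, adjusted p = 0.00153 over libraries and 0.0758 over events).

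**Figure D3:**
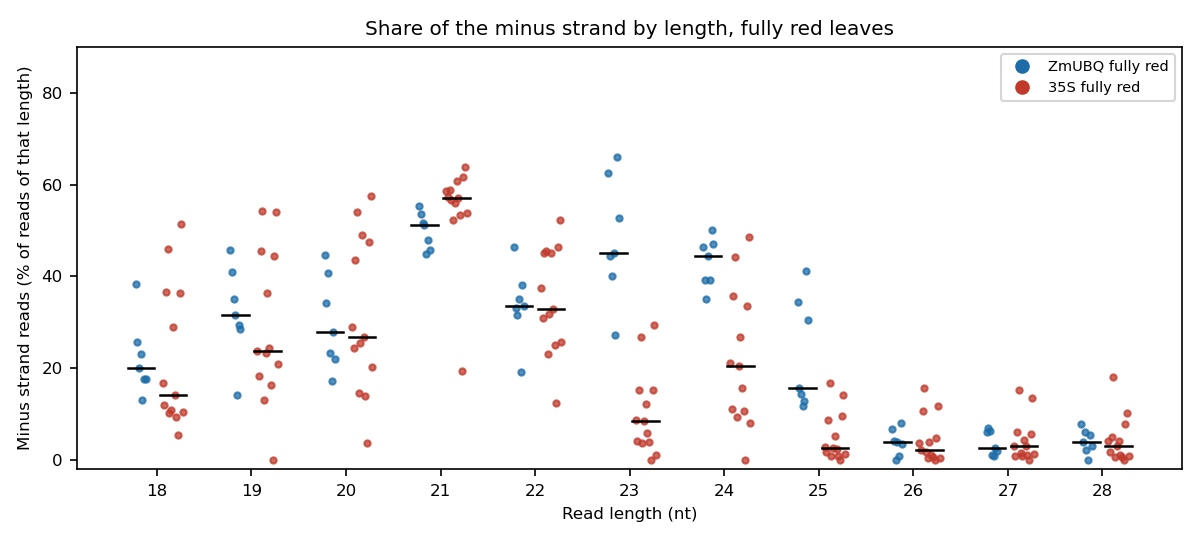
Share of minus strand reads at each length. The x axis is read length in nt, the y axis is the percentage of reads of that length on the minus strand, points are libraries (7 ZmUBQ, 13 35S) and bars are medians; the medians are farthest apart at 23, 24 and 25 nt.

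Of the shares of each length in all RUBY reads, those of 23 and 24 nt passed and the other 9 did not. The 24 nt share was 16.8 ± 8.23% in ZmUBQ (9.54 to 30.7%) and 4.84 ± 2.56% in 35S (2.23 to 12.1%). The highest 35S share, 12.1%, came from MK044 with its 404 RUBY reads, and 12 of the 13 35S libraries lay below every ZmUBQ library. The difference was 11.9 percentage points (exact permutation, adjusted p = 0.000322 over libraries and 0.0758 over events). The 23 nt share was 7.95% against 3.59% (exact permutation, adjusted p = 0.002 over libraries and 0.0909 over events). The 25 nt share was 3.51% against 3.35% (exact permutation, adjusted p = 0.956). The 22 nt share was 9.58 ± 0.953% against 10.4 ± 0.439% (exact permutation, adjusted p = 0.0606), and it passed when MK055 replicate 3 (adjusted p = 0.00332), MK056 replicate 6 (0.0259), MK042 (0.0369), MK044 (0.0448) or event MK055 (0.021) was left out. The 21 nt share was 38.6 ± 14.2% in ZmUBQ and 51.9 ± 14.7% in 35S and did not pass (exact permutation, adjusted p = 0.205). It did pass without MK044 (difference -16.1 percentage points; exact permutation, adjusted p = 0.0448) and without event MK054 (0.0383), and as a share of 21 to 24 nt reads (difference -19.4 percentage points, 0.0109). Within the minus strand alone, 21 nt reads made up 49.2% in ZmUBQ and 75.4% in 35S (exact permutation, adjusted p = 0.000322 over libraries and 0.0758 over events). Within the plus strand they made up 32.3% and 39.8%, which did not differ by the test (exact permutation, adjusted p = 0.697).

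Set against 21 nt RNAs of the same strand, the minus strand 24 nt RNAs gave a complete separation of the promoters. For each 100 minus strand 21 nt reads, the ZmUBQ libraries held 12.2 and 16.6 reads of 24 nt in MK054, 26.2, 31.4 and 34.7 in MK055, and 121 and 109 in MK056. The 35S libraries held 0 to 3.14, with a median of 2.68. Their 21 nt minus strand level ran from 16.6 RPM in MK044, with 131 RPM in MK041 replicate 1 as the next lowest, to 1284 RPM. In ZmUBQ it ran from 26.7 to 211 RPM, so apart from MK044 the 35S libraries did not cover the lower ZmUBQ levels. Every ZmUBQ library was above every 35S library, and the 0 came from MK044, which held 15 minus strand 21 nt reads. On the log2 scale, with 1 RPM added to both lengths, ZmUBQ was higher by 3.56 (95% interval 2.83 to 4.30; exact permutation, adjusted p = 0.000129), which is 11.8-fold. Over events the exact permutation p was 0.00606, the smallest possible, and 0.0606 after adjustment. The lowest difference in any of the 27 distinct leave-outs was 2.91 on the log2 scale. With 0.1 or 10 RPM added in place of 1, the fold was 15.2 or 6.73.

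The 23 nt ratio behaved alike. Per 100 minus strand 21 nt reads there were 25.5 ± 21.4 reads of 23 nt in ZmUBQ (6.50 to 60.4) and 0.733 ± 0.274 in 35S (0 to 1.05), again with every ZmUBQ library above every 35S library. The log2 difference was 3.97 (95% interval 3.14 to 4.82; exact permutation, adjusted p = 0.000129 over libraries and 0.0606 over events), and the fold of 15.7 became 24.2 or 6.77 with 0.1 or 10 RPM added. The 25 nt ratio was 5.22 against 0.266 per 100 (log2 difference 2.86, exact permutation, adjusted p = 0.0006 over libraries and 0.0909 over events). Its ranges, 1.22 to 13.4 in ZmUBQ and 0 to 0.386 in 35S, did not overlap either. With 1 RPM added, 12 of the 13 35S libraries lay below every ZmUBQ library. The 35S median of minus strand 25 nt RNAs, 0.536 RPM, is under the added 1 RPM, and the fold of 7.26 became 11.4 or 4.69 with 0.1 or 10 RPM added. The 22 nt ratio, in contrast, was 18.3 ± 7.37 against 13.7 ± 5.99 per 100, a log2 difference of 0.48 that did not pass (95% interval 0.03 to 0.95; exact permutation, adjusted p = 0.0794). MK044 held the highest 22 nt ratio of the 35S group, 33.3 per 100 from its 15 reads of 21 nt, and without it the difference was 0.60 and passed (exact permutation, adjusted p = 0.00114). It also passed without MK054 replicate 3 (0.0306), MK054 replicate 4 (0.0455) or event MK054 (0.018), and with 10 RPM added (0.00976).

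**Figure D4:**
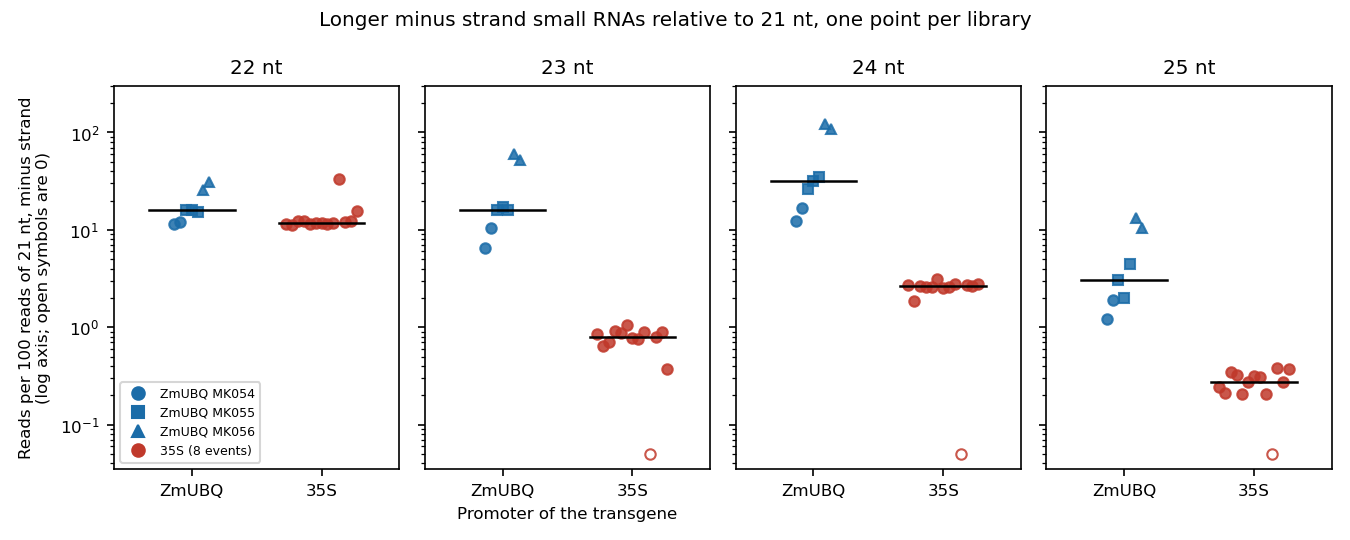
Minus strand reads of 22, 23, 24 and 25 nt for each 100 minus strand reads of 21 nt. The y axis is logarithmic, each point is a library (7 ZmUBQ with a symbol for each event, 13 35S), and bars are medians. The open symbol is the 35S library MK044 at 0. At 23, 24 and 25 nt all ZmUBQ points lie above all 35S points.

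Of 20 length ratios tested, 9 were higher in ZmUBQ (45%) and 0% were lower over libraries by exact permutation. Without adjustment 10 were higher and 0 lower. With 1 mean per event 0% passed after adjustment, and 4 of 20 passed unadjusted, all higher in ZmUBQ. On the minus strand, beside the 23, 24 and 25 nt ratios, those of 18 and 19 nt passed (log2 differences 1.00 and 0.97; exact permutation, adjusted p = 0.0375 and 0.00826). The minus strand ratios of 26, 27 and 28 nt also passed, but each of these classes held 0 to 7 reads in a ZmUBQ library, so the added 1 RPM sets their size. On the plus strand the 24 nt ratio alone passed, at 56.9 ± 36.2 per 100 in ZmUBQ (17.5 to 111) and 21.04 ± 19.9 per 100 in 35S (4.27 to 79.0). Its log2 difference was 1.64 (95% interval 0.55 to 2.72; exact permutation, adjusted p = 0.0149 over libraries and 0.242 over events), and it did not pass without event MK055 (0.0651) or MK056 (0.13). The other 9 plus strand ratios did not pass.

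How closely libraries of an event lay together depended on the ratio. Within ZmUBQ, 97.5% of the variance of the log2 24 nt to 21 nt minus strand ratio lay between events, against 24.4% for the 20 nt ratio of the same strand. The event means of the 24 nt ratio were 14.4 per 100 in MK054, 30.8 in MK055 and 115 in MK056. The order of the 24 nt ratio was the reverse of that of the 21 nt level on both strands, which is in part its denominator and whose geometric means were 201, 92.7 and 59.8 RPM in the same events. For the total level, 26.6% of the ZmUBQ variance and 72.7% of the 35S variance lay between events. Part of the variance lies between events even where events do not differ, so 24.4 and 26.6% need not reflect the event. The percentages cannot be compared between the promoters, because they are not corrected for the number of events. The 35S events MK025, MK042, MK044 and MK045, with 1 library each, also add no spread within events. The event totals (geometric means) were 362, 262 and 234 RPM in MK054, MK055 and MK056, and 446 to 1944 RPM over the 8 35S events, of which MK041 (535 RPM) and MK043 (593 RPM) were the nearest above MK044.

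The minus strand 24 nt to 21 nt ratio of the fully red ZmUBQ leaves can be set beside the other Col-0 leaf classes as a description. In plants labelled always red it had a median of 71.6 per 100 with ZmUBQ (26.8 to 204, n = 4) and 2.68 per 100 with 35S (2.16 to 3.47, n = 11). In fully green leaves it had a median of 2.46 per 100 with ZmUBQ (2.07 to 4.10, n = 7) and 2.69 per 100 with 35S (2.31 to 2.94, n = 9). The fully red ZmUBQ libraries, at 12.2 to 121 per 100, lay above all of these fully green libraries and above the 35S libraries titled fully red or, in Col-0, always red.

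Fully green leaves allowed a test of whether the promoter difference depended on leaf colour. Fully green and fully red libraries of the same event and replicate number gave 7 ZmUBQ and 9 35S pairs. The labels do not say that the libraries of a pair came from the same plant, so the pairing is an assumption. In ZmUBQ the 24 nt level was 67.3 to 543 RPM in green leaves and 23.9 to 70.9 RPM in red leaves, and in 35S it was 401 to 2398 and 28.4 to 70.9 RPM. Green was above red in all 16 pairs, but MK056 replicate 5 was almost level, at 72.6 RPM in green and 70.9 RPM in red. The geometric mean of the green to red fold was 4.25 in ZmUBQ (1.02 to 18.4) and 23.1 in 35S (7.28 to 65.2). These folds differed by -2.45 on the log2 scale (95% interval -3.79 to -1.10; exact permutation over pairs, adjusted p = 0.00734 among 6 features), and with 1 mean per event, 3 against 6, the adjusted p was 0.143. For 21 nt the folds were 65.7 and 61.3, a log2 difference of 0.10 (95% interval -1.64 to 1.76; exact permutation, adjusted p = 0.908). For the total they were 30.3 and 41.7 (log2 difference -0.46, 95% interval -1.90 to 0.92; exact permutation, adjusted p = 0.662).

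**Figure D5:**
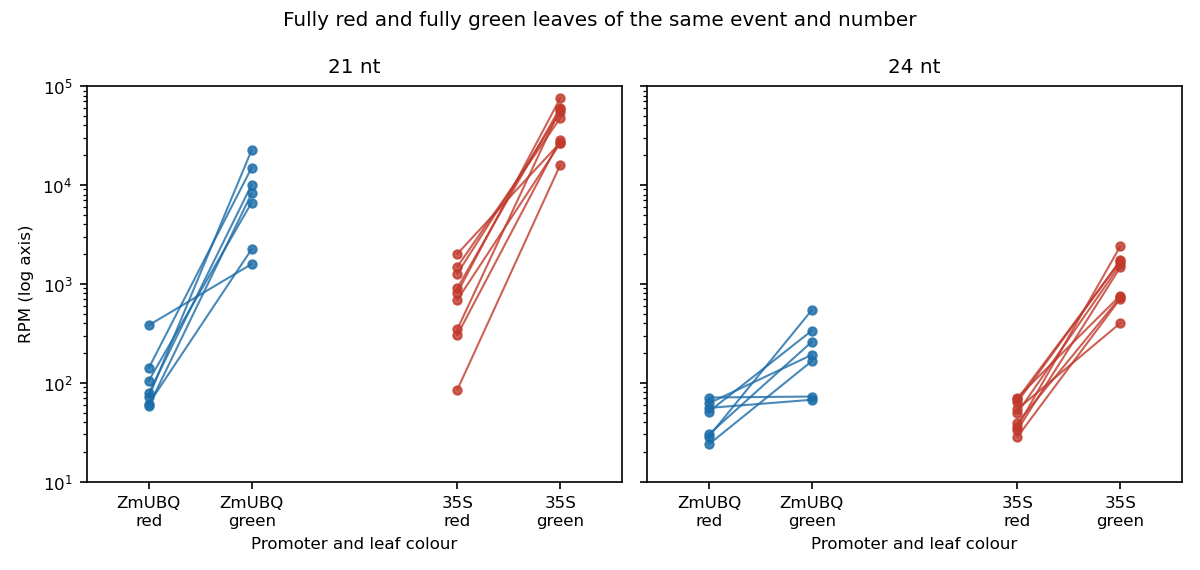
RUBY small RNA of 21 nt and 24 nt in fully red and fully green leaves. The log y axis gives RPM, and each line joins the 2 libraries of an event and replicate number (7 ZmUBQ pairs, 9 35S pairs); the 24 nt lines rise less in ZmUBQ than in 35S, where the geometric mean fold is 4.25 against 23.1, and for 21 nt it is 65.7 against 61.3.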

How the data were processed

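Small RNA-seq libraries were made from leaf RNA with TRIzol and the TruSeq Small RNA kit, per the labels' protocols. The authors deposited, per the file headers, a read count and reads scaled to 1e+06 mapped reads (RPM) for each length and strand of RUBY reads, with the mapped total. The genome build is TAIR10, per the submitters' processing notes. The aligner, mismatch setting, and handling of reads with several matches are not given in the sources used here. In the 51 files used, count, total and RPM matched on all 1112 lines (tolerance 1e-06). Classes without a line were set to 0, which concerned 3 of the 20 fully red libraries.

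Groups came from the titles and construct labels. The members and measures were chosen with earlier results of these data known. RPM was recomputed from the deposited counts and mapped totals. Levels were tested as log2(RPM + 1), ratios as log2 with 1 RPM added to each length, and shares in percent. Each used a two-sided exact permutation test of the difference in means over all 77520 regroupings of libraries, and over 165 regroupings of event means. Adjustment was Benjamini-Hochberg within 36 levels, 25 shares, 20 ratios or 6 green to red differences, with a threshold of 0.05. Folds are on the log2(RPM + 1) scale. Intervals are at 95% and hold the shifts that the test does not reject. The text names the total, both strands, each length, and mainly the 21 to 25 nt classes by strand. Alternatives were pseudocounts of 0.1 and 10 RPM, ranks, other denominators, a depth minimum of 8 M mapped reads, edgeR 4.0.16 and DESeq2 1.42.0 on counts (R 4.3.3), a replicate block, event means and leave-outs. Other calculations used Python 3.11.15, NumPy 2.4.6, SciPy 1.17.1 and pandas 2.3.3. The test was checked on simulated data in which all libraries were independent, so this check does not cover libraries that share an event. The series' design calls the replicates of each 35S event biological, and for ZmUBQ nothing says so. The p-values over libraries therefore set the promoter difference against the spread between these samples, which may be technical. Of 99 pairs of libraries within a group, 1 (MK041 replicate 1 and MK043 replicate 2) did not differ beyond sampling noise (chi-squared p = 0.228). Because events and depths differ, both were kept, and their average was an alternative. The 3-read floors cover counting error only. Other leaf classes and mutants were not analysed here beyond the values given.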

Additional observations from a re-analysis of the deposited data

Results flagged for a closer look

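The fold from fully red to fully green leaves differed between the promoters for 24 nt RNAs, by -2.45 on the log2 scale (exact permutation over 7 and 9 pairs, adjusted p = 0.00734). The fold was lower in ZmUBQ. With 1 mean per event the adjusted p was 0.143 by exact permutation, over 3 and 6 events.

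MK054 replicate 3, the ZmUBQ library with the highest total, lay far from the other 6 ZmUBQ libraries in 8 of the 81 measures examined. Among 7 values, a gap above 0.568 of the whole range marks such a library, which chance passes in about 1 of 20 groups, and 7 of the 8 measures share the plus strand 21 nt reads. Its 21 nt RNAs made up 60.2% of plus strand reads, the highest of the 7. Per 100 plus strand 21 nt reads it held 3.63 reads of 18 nt, 6.50 of 20 nt, 2.87 of 25 nt, 3.20 of 26 nt, 2.52 of 27 nt and 2.32 of 28 nt, each the lowest of the 7. Per 100 minus strand 21 nt reads it held 1.82 reads of 18 nt, also the lowest.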

How the results depend on the processing

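Across 1487 pairs of a fully red result and an alternative setting, counts of calls left aside, 1378 kept their direction and their side of the threshold, 54 no longer passed, 22 newly passed and 33 changed sign. Of 114 such pairs for the green to red differences, 103 kept both, 1 no longer passed and 10 changed sign. The total stayed lower in ZmUBQ, between -1.97 and -1.61 in the 27 distinct leave-outs, but was 0.143 (adjusted p = 0.689, exact permutation) when 21 to 24 nt reads were taken relative to the other lengths, which were lower too. With 1 mean per event, 22 of 36 levels, 0 of 25 shares, 0 of 20 ratios and 0 of 6 green to red differences passed. Calls by edgeR and by DESeq2 numbered 32 levels each, against 30 by permutation. For minus strand 24 nt RNAs they gave adjusted p = 0.0877 and 0.0845, and the log2 difference was 1.62 with 0.1 RPM added (exact permutation, adjusted p = 0.0678) and 0.63 with 10 RPM (0.0455). Replicate numbers showed no sign of pairing libraries across promoters. Same-numbered pairs of libraries had a median correlation of -0.0136, with 7 of 17 above 0.1. Pairs with other numbers had a median of -0.00841, with 30 of 74 above 0.1. A replicate block left 25 levels, 6 shares and 4 ratios. Leave-outs gave 23 to 32 levels, 5 to 9 shares and 3 to 11 ratios, the 3 without event MK055 or MK056.

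The other sign changes were in differences that did not pass the test. The 24 nt difference was -0.153 with the block, -0.00796 with the unseparated pair averaged, -0.0192 without replicate 3 of MK044 and of MK054 (chosen after seeing the data), and -0.235 to 0.215 in leave-outs. The minus strand share of all reads differed by -0.11 (ranks), -2.11 (8 M minimum), -0.634 (block), -0.0731 (shares of 21 to 24 nt), -0.304 (averaged), -4.08 (both left out) and -2.13 to 4.81 (leave-outs). The plus strand 25 nt ratio was -0.00493 to 0.813 in leave-outs. The green to red 21 nt difference was -0.215 over events, -0.00224 with 10 RPM added and -0.272 to 0.764 in leave-outs, in which the minus strand ran from -0.967 to 0.0455 and the total from -0.793 to 0.0612. The cause was not tested. Depth limits the minus strand classes of 26 to 28 nt and all minus strand values of MK044.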
